A study of Mus musculus with 38 samples.

Results

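The mitochondrial ribosomal protein genes were followed across 5 leukaemias driven by MLL fusion oncogenes and in normal marrow. Members were all probe sets whose annotation gave exactly 1 gene symbol, formed from Mrpl (large subunit) or Mrps (small subunit), a number and at most 1 letter. This rule found 156 of the 45101 probe sets on the array, for 76 genes, 47 named for the large and 29 for the small subunit. A further 4 probe sets shared with another gene were not assigned. All 76 genes passed the filter on dim probe sets, through 141 of their 156 probe sets, among 13333 genes tested. Marrow RNA of 38 mice was measured on Affymetrix arrays, 1 array per mouse. In 34 mice, c-kit+ progenitors infected with a retrovirus for MLL-AF1p (9 mice), MLL-AF10 (8), MLL-GAS7 (5), MLL-AF9 (5) or MLL-ENL (7) had been given to lethally irradiated syngeneic C57BL/6 males or females, and marrow was taken at euthanasia. The reference was marrow of 4 wild type C57BL/6 males or females, for which the labels give no transplant, irradiation or virus. The normal mice are therefore matched to the leukaemic ones in strain but not in treatment, and no ages are given. Whole marrow mixes many cell types, and in such bulk RNA fewer cells of a type and less RNA per cell cannot be told apart.

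Mitochondria keep their own ribosome, which translates the few messages of the mitochondrial genome, all of them for subunits of the respiratory chain and ATP synthase. Its RNA comes from that genome, but every protein of the particle is encoded in the nucleus, made in the cytosol and imported. Some of these proteins descend from bacterial ribosomal proteins and carry their numbers, and others were gained in the mitochondrial lineage. Many nuclear genes for mitochondrial proteins have CpG-rich promoters with sites for NRF1, for ETS factors such as GABP, and for YY1.

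Promoter sequences, 250 bases before to 50 after the transcription start, were matched in RefSeq (GRCm38.p6) for 67 of the 76 members. Printed are 3 members with large rises in leukaemia, Mrps27 (chr13:99344536-99344835, plus strand), Mrpl17 (chr7:105811038-105811337, minus strand) and Mrpl33 (chr5:31613701-31614000, plus strand), and Mrpl32 (chr13:14612988-14613287, minus strand), which was highest in MLL-ENL. Each runs 5′ to 3′ on the gene's strand. Capitals mark matches on either strand to the NRF1 core GCGCATGC, the ETS letters CCGGAAG, the E-box CACGTG or the YY1 letters AAGATGGCG. Each printed promoter holds such a match, but not every member with a large rise does. The promoters of Mrpl23, Mrps15 and Mrps14, also among the 8 largest rises, held none of these letters.
Mrps27: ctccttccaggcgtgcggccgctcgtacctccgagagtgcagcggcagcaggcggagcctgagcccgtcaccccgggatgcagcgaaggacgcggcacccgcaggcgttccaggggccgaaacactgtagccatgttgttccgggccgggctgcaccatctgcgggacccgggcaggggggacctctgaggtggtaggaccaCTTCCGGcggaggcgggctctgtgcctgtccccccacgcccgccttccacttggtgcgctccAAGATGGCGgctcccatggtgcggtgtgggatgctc
Mrpl17: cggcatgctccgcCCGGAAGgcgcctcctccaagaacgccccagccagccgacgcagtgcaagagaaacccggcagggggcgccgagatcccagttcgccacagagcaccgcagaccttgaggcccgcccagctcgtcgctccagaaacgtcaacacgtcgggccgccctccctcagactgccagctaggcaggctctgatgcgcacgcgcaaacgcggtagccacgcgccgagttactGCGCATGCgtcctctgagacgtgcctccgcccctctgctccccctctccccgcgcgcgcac
Mrpl33: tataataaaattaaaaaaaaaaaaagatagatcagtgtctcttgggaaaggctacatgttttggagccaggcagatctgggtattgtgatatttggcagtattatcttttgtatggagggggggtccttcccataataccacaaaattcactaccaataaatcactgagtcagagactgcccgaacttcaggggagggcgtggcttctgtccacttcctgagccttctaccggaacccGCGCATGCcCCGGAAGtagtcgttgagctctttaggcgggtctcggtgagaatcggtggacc
Mrpl32: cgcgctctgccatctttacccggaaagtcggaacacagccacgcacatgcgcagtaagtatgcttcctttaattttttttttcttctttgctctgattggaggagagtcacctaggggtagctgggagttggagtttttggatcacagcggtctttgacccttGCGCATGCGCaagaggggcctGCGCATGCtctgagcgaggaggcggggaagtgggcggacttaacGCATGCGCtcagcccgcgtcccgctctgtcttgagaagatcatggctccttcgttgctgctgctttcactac
In Mrps27 an ETS match on the opposite strand stands before a YY1 match within the first transcribed bases, and Mrpl32 holds several NRF1 core matches, some overlapping. Among the 67 member promoters the ETS letters were found in 24 (35.8%), against 9.12% of 27025 promoters and 16.9% of the 10759 promoters of genes tested on the array. The NRF1 core was found in 8 members (11.9%, against 2.8% and 5.05%). The YY1 letters were also found in 8 (11.9%, against 1.49% and 3%). The E-box, the site of MYC family proteins, was found in 5 (7.46%, against 7.24% and 9.68%). Of the 24 members with the ETS letters 15 were called higher in leukaemia, and of the 43 without them 22. The same was true of 6 of 8 members with the NRF1 core and of 31 of 59 without it. It was true of 4 of 8 with the YY1 letters and 33 of 59 without, and of 2 of 5 with the E-box and 35 of 62 without. Over all genes 29.1% were called higher. Differences between members with and without the letters were not tested. A letter match is a description and not a binding site.

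Array median intensities ran from 129.2 to 208.3 in leukaemia and from 160.1 to 184.9 in normal marrow. The 3′ minus 5′ difference of the actin control, a sign of RNA quality, was 0.15 to 0.65 in leukaemia and 0.07 to 0.22 in normal marrow (log2). Values of a group of probe sets, none of them a member, split the arrays into 2 sets that the labels do not name, one with 16 leukaemias and the other with 18 leukaemias and all 4 normal samples. Each cohort lay in both sets. Summed intensity of 10 erythroid markers was 2012.4 to 4703.7 in leukaemia and 106980.8 to 151186.9 in normal marrow. For 11 B cell markers it was 1627.4 to 7493.0 in leukaemia and 15559.4 to 31976.7 in normal marrow. T and NK cell markers summed to 854.2 to 5323.1 in leukaemia and 5039.0 to 6626.7 in normal marrow, and megakaryocyte markers to 1015.8 to 2618.2 in leukaemia and 22273.8 to 33412.3 in normal marrow. Late neutrophil markers ran from 39568.7 to 545629.7 in leukaemia and from 250152.2 to 406050.8 in normal marrow. Monocyte markers ran from 36534.1 to 129329.6 in leukaemia and from 20616.6 to 33159.6 in normal marrow. In the comparison of leukaemia with normal marrow 9 of 10 erythroid, 11 of 11 B cell, 7 of 8 T and NK cell, 6 of 7 megakaryocyte, 5 of 9 late neutrophil, 6 of 7 resident macrophage and 5 of 6 stromal markers were called lower. In the same comparison 8 of 8 monocyte and 3 of 4 primary granule markers, and 1 resident macrophage marker, were called higher. No marker of these lists was at 0. These differences in cell makeup and RNA quality move with every comparison of leukaemia with normal marrow below, and their part in the results was not tested.

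Mitochondrial ribosomal protein mRNAs were higher in leukaemia in the majority of members and lower in none. The mean of the 5 cohorts exceeded normal marrow at an adjusted p under 0.05 (limma, Benjamini-Hochberg over all 13333 genes) for 44 of the 76, where 29.1% of all genes were called higher. No member was called lower, and none was lower at an unadjusted p under 0.05, where 12.8% of all genes were called lower after adjustment. The median log2 difference of the members was 0.40, against 0.16 for all genes tested. All differences are on the log2(intensity + 46.1) scale, which understates changes of dim genes. The estimate was above 0 for 67 members, and 57 members were higher in each of the 5 cohorts. Counted by symbol, which is not always the place of the protein in the particle, 28 of 47 Mrpl genes (median 0.40) and 16 of 29 Mrps genes (median 0.40) were called higher. Among members that carry a bacterial number, 18 of 27 large-subunit (median 0.42) and 9 of 16 small-subunit genes (median 0.46) were called higher, and among those numbered above the bacterial range 10 of 20 (0.36) and 7 of 13 (0.40). Without the shift of arrays to a common median 35 members were called higher and 1, Mrpl14, lower, and after quantile normalization 37 higher and again Mrpl14 lower. The median of all genes was then 0.04 and 0.09, the share of calls that were higher 57.0% and 60.5% in place of 69.4%, and the members' median 0.27 and 0.28.

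**Figure D1:**
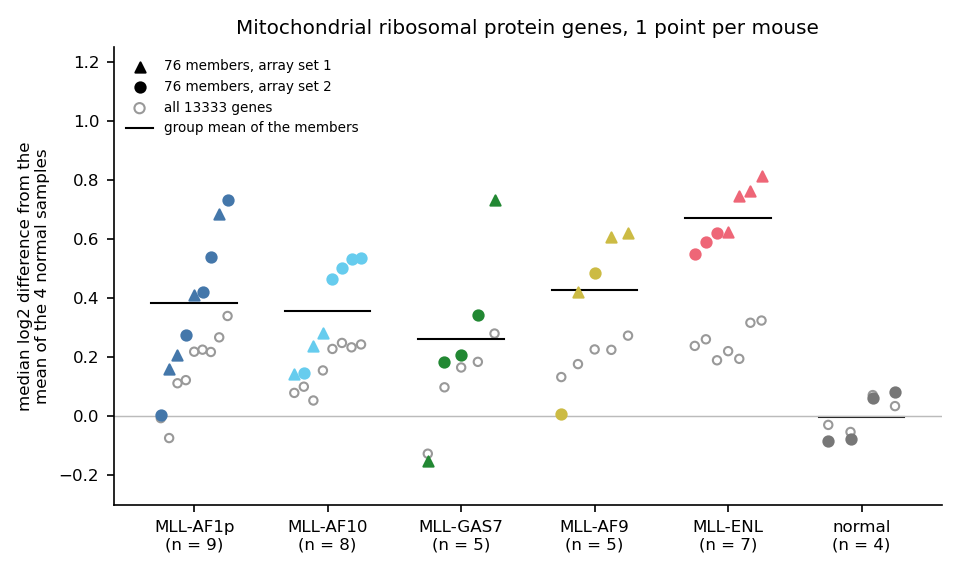
Median over the 76 members of the log2 difference from the mean of the 4 normal samples (vertical axis), 1 filled point per mouse by cohort, with triangles for array set 1, circles for array set 2, a line at the group mean, and open grey circles for the median of all 13333 genes in the same mouse. The 7 MLL-ENL mice lie between 0.55 and 0.81, above all 4 normal mice, while MLL-GAS7_407 and MLL-AF9_305 lie at -0.15 and 0.01.

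Taken mouse by mouse, the median deviation of the 76 members from the normal mean ran from -0.15 to 0.81 in leukaemia, with a median of 0.48, and from -0.08 to 0.08 in normal marrow. It averaged 0.42 ± 0.25 in leukaemia (SD, n = 34), against 0.00 ± 0.09 in normal marrow (SD, n = 4). Leukaemias of array set 1 had a median of 0.51 and those of set 2 one of 0.48. Their means were 0.46 in set 1 and 0.40 in set 2, or 0.29 and 0.21 after subtracting the median of all genes in each mouse. The part of the array sets in these values was not tested. The mice closest to normal marrow came from 3 cohorts. MLL-GAS7_407 and MLL-AF9_305 each had 18 of the 76 members above the highest normal value. MLL-AF1p_803 had 20, while MLL-ENL mice had 62 to 73. These counts were not made over all genes. After subtracting the median of all genes in each mouse, the member median was -0.03 in MLL-GAS7_407, -0.13 in MLL-AF9_305 and 0.01 in MLL-AF1p_803. In MLL-ENL mice that difference ran from 0.31 to 0.55.

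**Figure D2:**
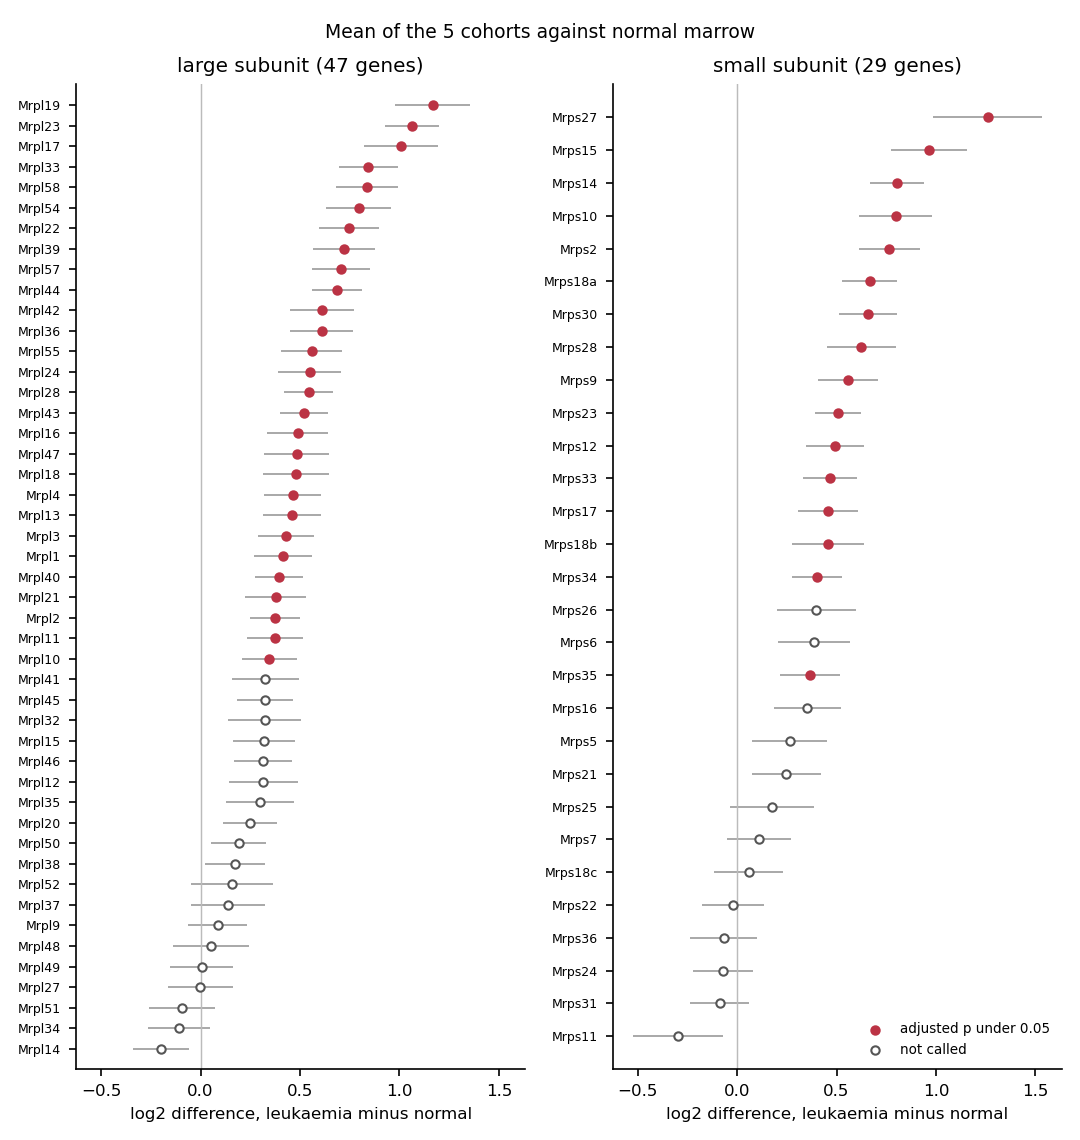
Log2 difference, mean of the 5 cohorts minus normal marrow, of each large-subunit (left) and small-subunit gene (right), with SE bars, filled where the adjusted p was under 0.05 and open where it was not. Filled points lie to the right of 0 in both subunits, and Mrps27 and Mrpl19 lie farthest to the right.

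The largest rise was that of Mrps27, a small-subunit protein with pentatricopeptide repeats and no bacterial counterpart. In leukaemia its log2 values were 6.64 at the lowest, 8.72 at the median and 9.41 at the highest, against 8.09, 7.86, 6.84 and 6.61 in normal marrow. Of the 34 leukaemias 30 lay above every normal sample, although the normal samples themselves were widely spread. The difference was 1.26 (SE 0.27), a 2.39-fold rise with an adjusted p of 0.000266. Mrpl19, a large-subunit protein of bacterial descent, had 9.57, 10.55 and 11.17 as lowest, median and highest leukaemia values, against 9.57, 9.20, 9.85 and 8.78 in normal marrow. It rose 2.24-fold (log2 1.17, SE 0.19, adjusted p 3.45e-06), and 32 leukaemias lay above all normal samples. The other kept probe sets of Mrpl19 gave smaller differences, 0.64 (adjusted p 0.0078 over probe sets) and 0.15 (0.54).

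Mrpl23 and Mrpl17 were the members of this group in which leukaemia and normal marrow did not overlap at all. Mrpl23, which sits at the exit of the peptide tunnel, had 11.01, 11.79 and 12.25 as lowest, median and highest leukaemia values, against 10.77, 10.88, 10.56 and 10.62 in normal marrow. It rose 2.09-fold (log2 1.06, SE 0.13, adjusted p 4.38e-08). Mrpl17, of the large subunit, had 10.48, 11.39 and 12.08 in leukaemia, against 10.40, 10.35, 10.26 and 10.04 in normal marrow. It rose 2.01-fold (log2 1.01, SE 0.19, adjusted p 3.39e-05), but its other kept probe sets gave -0.33 (adjusted p 0.245 over probe sets) and 0.62 (0.0091). In all, 3 of the 76 members had every leukaemia above every normal sample, where 4.85% of all genes did. Such a separation was thus no more frequent among the members than over all genes. The third member was Mrps23, singled out after its values were seen. Mrps23 had 9.88, 10.30 and 10.67 in leukaemia, against 9.87, 9.87, 9.76 and 9.61 in normal marrow, a narrow gap with a log2 difference of 0.51.

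**Figure D3:**
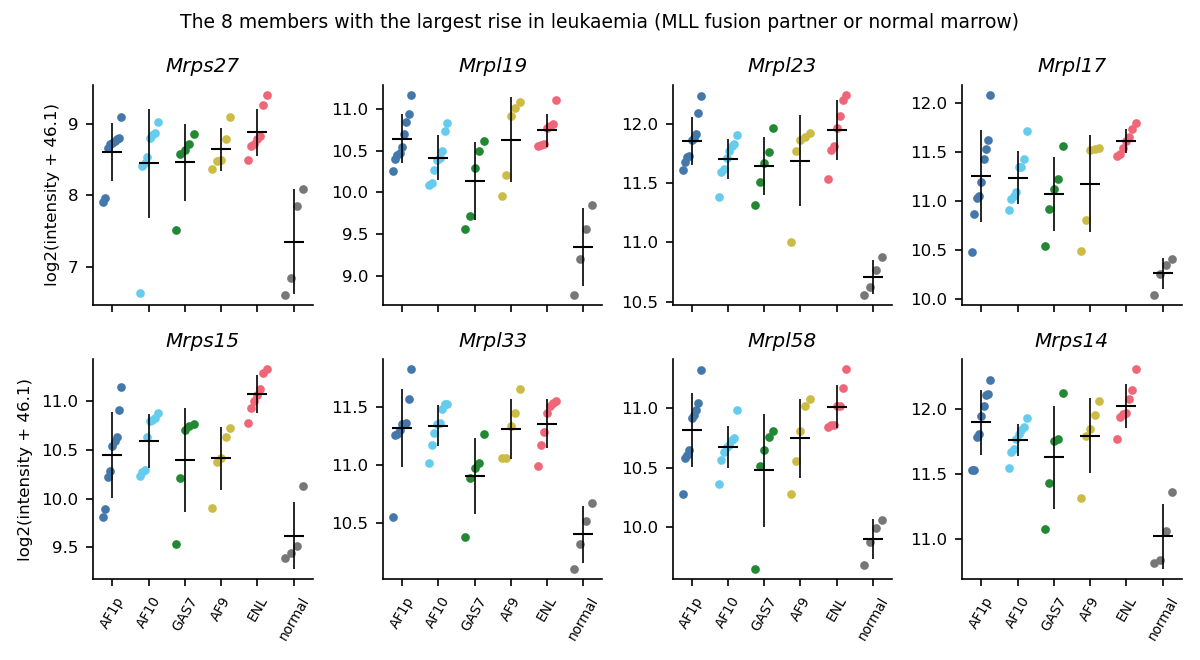
Log2(intensity + 46.1) of the 8 members with the largest rise in leukaemia, 1 point per mouse, by MLL fusion partner and in normal marrow, with the group mean and SD in black. In Mrpl23 and Mrpl17 all 34 leukaemias lie above all 4 normal samples, as they do in 4.85% of all genes. In Mrps27 the normal samples spread from 6.61 to 8.09.

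Mrps15, a small-subunit protein of bacterial descent, had 9.54, 10.67 and 11.33 as lowest, median and highest leukaemia values, against 9.44, 10.13, 9.51 and 9.39 in normal marrow. Here 30 leukaemias exceeded all normal samples and 1 normal sample stood above the other 3. The difference was 0.97 (SE 0.19, 1.95-fold, adjusted p 8.43e-05). With the most variable kept probe set in its place the call was lost (0.36, adjusted p 0.388), while the remaining kept one gave 1.08 (2.72e-07 over probe sets). Mrps14, also of the small subunit, had 11.08, 11.85 and 12.31 in leukaemia, against 11.36, 11.06, 10.84 and 10.82 in normal marrow. In Mrps14 32 leukaemias exceeded all normal samples (log2 0.80, SE 0.14, adjusted p 1.12e-05), and its other kept probe set gave 0.36 (adjusted p 0.0809 over probe sets). The other large rises were both in the large subunit. Mrpl33 had 10.38, 11.32 and 11.83 in leukaemia, against 10.10, 10.51, 10.68 and 10.32 in normal marrow, with 32 leukaemias above all normal samples (0.84, SE 0.15, adjusted p 1.45e-05). With the most variable kept probe set that difference was 0.53 (adjusted p 0.0518). Mrpl58 has a peptidyl-tRNA hydrolase fold and takes part in the rescue of stalled ribosomes. It had 9.65, 10.78 and 11.32 in leukaemia, against 9.88, 9.99, 10.06 and 9.68 in normal marrow. All but 1 leukaemia lay above every normal sample, 33 of 34 (0.84, SE 0.15, adjusted p 3.42e-05). A second probe set of Mrpl58 gave 0.01 (adjusted p 0.979 over probe sets).

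The 3 paralogues of bacterial S18, which occupy different places in the particle, differed in their values. Mrps18a, which is found in the large subunit despite its name, had 9.72, 10.40 and 10.80 as lowest, median and highest leukaemia values, against 9.76, 9.73, 9.46 and 9.77 in normal marrow. It was above all normal samples in 33 leukaemias (0.67, SE 0.14, 1.59-fold, adjusted p 0.000184). Mrps18b had 9.16, 9.86 and 10.60 in leukaemia, against 9.45, 9.54, 9.36 and 9.30 in normal marrow (0.46, SE 0.18, adjusted p 0.0398). That call was lost without any 1 of the 4 normal samples (adjusted p up to 0.122), without the shift of arrays (0.102) and after quantile normalization (0.0633). Mrps18c had 10.15, 10.70 and 11.31 in leukaemia, against 10.77, 10.67, 10.63 and 10.82 in normal marrow. The values of Mrps18c overlapped fully and no difference was called (0.06, adjusted p 0.82). The differences between the paralogues were not tested.

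Other members were described by their place in the particle. Of the stalk proteins, which recruit the translation factors, Mrpl10 (0.35, adjusted p 0.0423) and Mrpl11 at the stalk base (0.37, adjusted p 0.0307) were called higher. Mrpl12, which also binds the mitochondrial RNA polymerase, was not called (0.31, adjusted p 0.146), except with array weights (0.35, adjusted p 0.0432). The Mrpl11 call was lost without any 1 of the normal samples (adjusted p up to 0.102), and the Mrpl10 call without MLL-GAS7_405, MLL-AF9_301, MLL-AF9_310 or normal sample 2, 3 or 4 (up to 0.139). Without the shift of arrays and after quantile normalization neither was called, with 0.127 and 0.166 for Mrpl10 and 0.061 and 0.0564 for Mrpl11 as adjusted p. Mrps12, of the decoding centre, was higher by 0.49 (adjusted p 0.0064), with 30 leukaemias above all normal samples. Mrpl44, which has an RNase III-like domain, had 10.55, 11.21 and 11.67 in leukaemia, against 10.48, 10.65, 10.40 and 10.56 in normal marrow. It was above all normal samples in 33 leukaemias (0.69, SE 0.13, 1.61-fold, adjusted p 3.01e-05). Mrpl41 (0.33, adjusted p 0.116) and Mrpl45, which anchors the ribosome to the inner membrane (0.32, adjusted p 0.0591), were not called. The other kept probe set of Mrpl41 gave 0.54 (adjusted p 0.0058 over probe sets). Mrpl41 was called with the mean of its kept probe sets (0.43, adjusted p 0.021) and with array weights (0.37, adjusted p 0.0251). Mrpl45 was called when MLL-AF1p_801, MLL-AF1p_803, MLL-GAS7_407 or MLL-AF9_305 was left out. It was also called with array weights (adjusted p 0.00577), with array set as a term (0.0412) and within array set 2 (0.0445).

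Of the 9 members with an estimate below 0, Mrps11 had -0.30 and Mrpl14 -0.20, and neither was called. They were named after their values were seen. At the level of probe sets 60 of the 141 kept were called higher, where 24.9% of all kept probe sets were, and 1 was called lower. The lower one is a probe set of Mrpl38 (-0.99, adjusted p 0.009), a gene whose representative probe set had 0.17 (adjusted p 0.379). Of the 38 members with several kept probe sets 25 had estimates of 1 sign and 13 of both signs, and none was called in both directions.

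Set against normal marrow 1 at a time, every cohort had members called higher and none called lower. In MLL-AF1p 34 were called higher (median 0.38), where 24.2% of all genes were. In MLL-AF10 it was 31 (median 0.36), with 24.8% of all genes. In MLL-GAS7 it was 18 (median 0.26), with 16.7%, and in MLL-AF9 32 (median 0.43), with 23.7%. In MLL-ENL 57 were called higher (median 0.67), with 30.3% of all genes, and all 76 estimates were above 0. The 5 comparisons share the same 4 normal samples. At an unadjusted p under 0.05, MLL-AF1p had 1 member lower, MLL-AF10 also 1, and there were 0 in each of the other cohorts. MLL-GAS7 had the lowest estimate of the 5 cohorts for 42 members, a count not made over all genes. The MLL-GAS7 count was 11 without MLL-GAS7_406 and 9 without normal sample 4, and the MLL-AF9 count was 20 without MLL-AF9_301 and 19 without normal sample 4. In each of the 5 cohorts 17 members were called higher, among them Mrpl17, Mrpl19, Mrpl23, Mrpl33, Mrpl44, Mrpl58, Mrps14, Mrps15, Mrps18a and Mrps27. The same held for 12.3% of all genes. A further 16 were called in MLL-ENL and in no other cohort, as were 4.76% of all genes.

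MLL-ENL stood apart from the other leukaemias in part of the members. Against the mean of the other 4 cohorts 15 members were called higher, where 3.69% of all genes were. None was called lower, where 170 of 13333 genes were. The median of the 76 members was 0.30, against 0.09 for all genes. Of the member estimates 75 were above 0, as were 8682 of 13333 over all genes. MLL-ENL had the highest estimate of the 5 cohorts for 70 members, a count not made over all genes. The 15 were 10 of the large subunit (Mrpl32, Mrpl51, Mrpl42, Mrpl35, Mrpl36, Mrpl13, Mrpl15, Mrpl39, Mrpl21, Mrpl45) and 5 of the small one (Mrps15, Mrps6, Mrps16, Mrps21, Mrps33). For each of them all 7 MLL-ENL mice lay above the median of the other 27 leukaemias, which their choice by this comparison makes likely. That was also the case for 47 of the 76 members, and its share over all genes was not counted. All but Mrpl51 were also called higher in MLL-ENL than in normal marrow, 14 of 15.

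**Figure D4:**
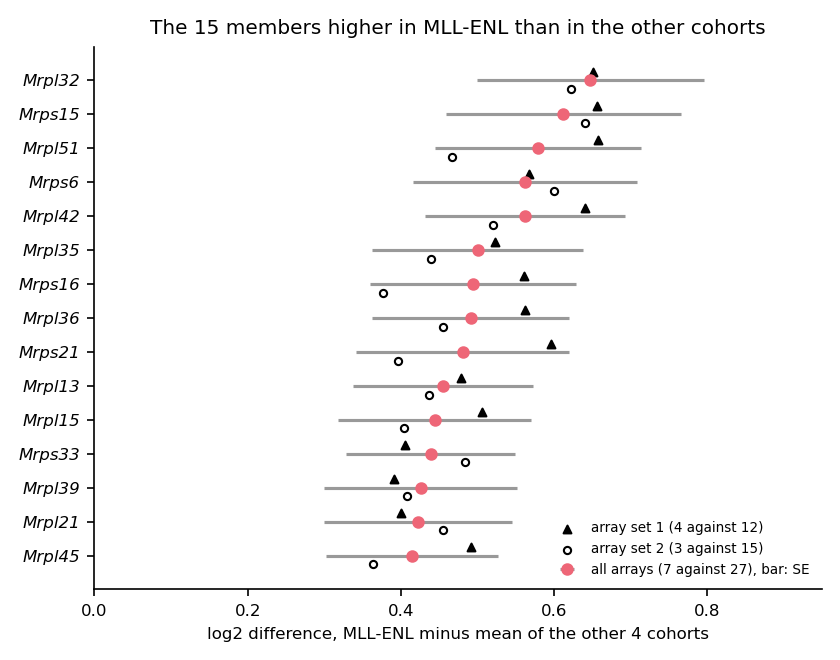
Log2 difference, MLL-ENL minus the mean of the other 4 cohorts, of the 15 members called higher in MLL-ENL, over all arrays with SE bars, and within array set 1 (triangles) and array set 2 (open circles). Every point lies to the right of 0, between 0.36 and 0.66, for members that were chosen on these same arrays.

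Mrpl32, a large-subunit protein that is cut to its mature form by the m-AAA protease before assembly, showed the largest of these differences. In MLL-ENL its log2 values were 11.39, 11.53 and 11.81 as lowest, median and highest. MLL-AF1p mice had 10.15, 11.06 and 11.60 by the same measures, and MLL-AF10 mice 10.47, 10.75 and 11.41. MLL-GAS7 mice had 11.01, 11.54, 10.50, 10.53 and 10.38, and MLL-AF9 mice 11.36, 10.63, 10.89, 11.06 and 10.89. Only 3 of the other 27 leukaemias exceeded the lowest MLL-ENL value, and the difference was 0.65 (SE 0.15, 1.57-fold, adjusted p 0.0089). Normal samples had 11.00, 10.80, 10.50 and 10.60, within the range of the other cohorts. Leukaemia as a whole was not called different from normal (0.32, adjusted p 0.162), except with array weights (0.38, adjusted p 0.0412).

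Mrps15 had 10.78, 11.07 and 11.33 in MLL-ENL, against 9.54, 10.59 and 11.14 in the other 27 leukaemias (lowest, median and highest each), a difference of 0.61 (SE 0.15, adjusted p 0.0167), which was 0.12 (adjusted p 0.833) with the most variable kept probe set. Of the other leukaemias 6 exceeded the lowest MLL-ENL mouse. Mrpl51, a protein specific to mitochondria, had 11.87, 12.16 and 12.45 in MLL-ENL. The values were 10.81, 11.33 and 11.83 in MLL-AF1p and 11.20, 11.57 and 11.79 in MLL-AF10. They were 11.68, 12.15, 10.98, 11.33 and 11.60 in MLL-GAS7 mice, 11.82, 11.06, 11.86, 12.14 and 11.96 in MLL-AF9 mice, and 11.88, 11.85, 11.61 and 11.79 in normal samples. MLL-ENL thus lay 0.58 above the other cohorts (SE 0.13, adjusted p 0.0101), while all MLL-AF1p mice lay below the highest normal sample. The call was lost with the most variable kept probe set (0.14, adjusted p 0.705) and without _s, _x and _a probe sets (0.34, adjusted p 0.0782). Leukaemia as a whole did not differ from normal marrow in Mrpl51 by this test (-0.09, adjusted p 0.693).

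An F test among the 5 cohorts called 7 members, where 8.09% of all genes were called. They were Mrpl51 (adjusted p 0.0159), Mrpl50 (0.0289), Mrpl42 (0.0297), Mrpl45 (0.0298), Mrpl32 (0.0345), Mrpl35 and Mrpl36, all of the large subunit. Mrpl42, a protein specific to mitochondria, had 11.25, 11.47 and 11.68 in MLL-ENL, against 10.30, 10.92 and 11.50 in the other leukaemias and 10.70, 10.32, 10.27 and 10.31 in normal samples. In Mrpl42 both differences were called, MLL-ENL over the other cohorts (0.56, adjusted p 0.0103) and leukaemia over normal (0.61, adjusted p 0.0025). Mrpl50, another such protein, differed in how the cohorts were ordered. MLL-ENL mice had 9.61, 9.80 and 10.17, MLL-AF1p mice 9.38, 9.63 and 9.96, and MLL-AF10 mice 9.00, 9.32 and 9.50 (lowest, median and highest each). MLL-GAS7 mice had 9.42, 10.06, 9.15, 8.89 and 9.03, MLL-AF9 mice 9.94, 9.33, 9.86, 9.55 and 9.75, and normal samples 9.66, 9.26, 9.12 and 9.43. For Mrpl50 the MLL-AF10 mice all lay below the MLL-ENL mice, and the MLL-GAS7 mice were the most spread. The count of 7 was 21 without MLL-GAS7_406, 12 without MLL-AF1p_809, and 2 to 4 without MLL-AF10_805A, MLL-GAS7_408, MLL-GAS7_410 or any 1 of the 7 MLL-ENL arrays.

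Within array set 1 (4 MLL-ENL against 12 other leukaemias) 75 members were above 0 with a median of 0.36, against 0.15 for all genes. Of the members 36 had an unadjusted p under 0.05 and none was called after adjustment, where 60 of 13333 genes were. Within array set 2 (3 against 15) 73 members were above 0 with a median of 0.25, against 0.06 for all genes. Here 23 had an unadjusted p under 0.05 and again none was called, where 71 of 13437 genes were. The share of all genes at an unadjusted p under 0.05 was not counted. The 15 members called over both sets were at 0.39 to 0.66 in set 1 and 0.36 to 0.64 in set 2. They had been chosen on these same arrays, so their sign within each set is no separate support. With the set as a term in the model 16 members were called. The count of 15 was 29 without MLL-GAS7_406, and 8, 9, 4 and 8 without MLL-ENL_701, MLL-ENL_760, MLL-ENL_741 and MLL-ENL_703. Late neutrophil markers had a median difference of -0.75 between MLL-ENL and the other cohorts, with 1 of 9 called lower. Their summed intensity in MLL-ENL was 40079.3 to 192503.6, against 39568.7 to 545629.7 over all leukaemias. The part of these markers in the MLL-ENL result was not tested.

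No other cohort had a member called against the rest. MLL-AF1p had 0 called, where 2.33% of all genes were called in either direction, with 6 members lower at an unadjusted p under 0.05. MLL-AF10 had 0, where 0.308% of all genes were called, with 7 lower at an unadjusted p under 0.05. MLL-GAS7 had 0, where 4.78% of all genes were called. Its member median was -0.19, against -0.08 for all genes, and 17 members were lower at an unadjusted p under 0.05. MLL-AF9 had 0, where 0.368% of all genes were called, and 0 members at an unadjusted p under 0.05. The shares of all genes at an unadjusted p under 0.05 were not counted. In MLL-GAS7 the mice differed widely. Their member medians were 0.34 in mouse GAS7_405, 0.73 in GAS7_406, -0.15 in GAS7_407, 0.21 in GAS7_408 and 0.18 in GAS7_410, and without GAS7_406 the number of members called in MLL-GAS7 was 12. It was 1 to 2 without MLL-AF1p_803, MLL-AF9_305 or MLL-ENL_742. In MLL-AF9 the medians were 0.62 in mouse AF9_301, 0.01 in AF9_305, 0.42 in AF9_307, 0.61 in AF9_308 and 0.49 in AF9_310.

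Some other genes of mitochondrial translation were also higher in leukaemia. Over all genes, for this and the lists below, 29.1% were called higher and 12.8% lower, with a median of 0.16. Of the mitoribosome proteins with other names, Chchd1 (0.76, adjusted p 0.000239) and Gadd45gip1 (0.53, adjusted p 0.0434) were called higher, and Dap3 (-0.34, adjusted p 0.162) and Ptcd3 (0.32, adjusted p 0.0959) were not called. Among 13 translation factors 6 were called higher and none lower (median 0.29). The largest was Mtif3, an initiation factor, with log2 values of 6.14 to 8.73 in leukaemia and 5.80 to 6.24 in normal marrow (1.82, 3.52-fold, adjusted p 5.82e-06), before Slirp, an RNA-binding protein (0.84), and Tufm, the elongation factor (0.81). Of 15 mitochondrial tRNA synthetases 6 were called higher and none lower (median 0.32), led by Vars2 (0.72), Rars2 (0.57) and Ears2 (0.53).

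Of 26 factors that assemble the mitoribosome 12 were called higher and 1 lower (median 0.39). Mtg1, a GTPase of large-subunit assembly, ran from 9.79 to 10.69 in leukaemia and from 8.69 to 9.16 in normal marrow, with no overlap (1.26, 2.39-fold, adjusted p 3.13e-12). Ddx28, an RNA helicase, ran from 8.40 to 9.52 in leukaemia and from 7.47 to 8.02 in normal marrow (1.13, adjusted p 3.14e-07), and Nsun4, an rRNA methyltransferase, from 8.65 to 9.57 in leukaemia and from 8.05 to 8.46 in normal marrow (0.89, adjusted p 1.4e-06). All 34 leukaemias exceeded all normal samples in these 3 genes, as they did in 4.85% of all genes. The 3 were named for the largest changes of the list, which makes such a separation likely. The lower one, singled out after its values were seen, was Mrm1, which methylates the large ribosomal RNA. It had 8.28 to 9.03 in leukaemia and 9.03 to 9.69 in normal marrow (-0.60, adjusted p 0.000113). Against the other cohorts Mtg1 was called higher in MLL-ENL (0.29, adjusted p 0.0421) and lower in MLL-GAS7 (-0.41, adjusted p 0.0098).

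Of 12 genes for maintenance and transcription of mitochondrial DNA 7 were called higher and none lower (median 0.40). They included Top1mt, a topoisomerase (0.78, adjusted p 0.0019), Ssbp1, which binds single-stranded mitochondrial DNA (0.65, adjusted p 0.0033), Tfb2m (0.58) and the RNA polymerase Polrmt (0.58, adjusted p 0.0309). Tfam, the packaging protein, was not called (0.19, adjusted p 0.312). Nuclear regulators gave fewer calls, 2 of 10 higher, where 29.1% of all genes were. Mycn ran from 10.22 to 16.21 in leukaemia and from 6.58 to 7.87 in normal marrow (5.29, adjusted p 2.27e-17), and in MLL-AF10 it was 3.65 above the other cohorts (adjusted p 3.71e-14). Myc was higher by 1.09 (adjusted p 0.0052). Of the factors whose letters were searched in the promoters other than the E-box, Nrf1 had -0.24 (adjusted p 0.133), Gabpa 0.32 (0.0981) and Yy1 0.14 (0.361), none of them called.

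Among 45 cytosolic ribosomal protein genes 39 were called higher and none lower, with a median of 0.54, and Rpl37 (1.77), Rpl27a (1.69) and Rpl11 (1.08) led. Among 70 subunits of the respiratory chain and ATP synthase 32 were called higher and none lower, with a median of 0.33, led by Ndufs5 (0.998), Ndufb11 (0.91) and Cycs (0.88). For MLL-ENL against the other cohorts the lists stood in another order. The median there was 0.30 for the mitochondrial ribosomal proteins, with 15 of 76 called higher, 0.05 for the cytosolic ones, with 1 of 45 (Rps27l, 0.50), and 0.23 for the respiratory chain, with 4 of 70, among them Ndufa5 (0.53, adjusted p 0.0317) and Cox5a (0.43, adjusted p 0.0228). Over all genes the median of that comparison was 0.09, with 3.69% called higher. Differences between the lists were not tested.

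**Figure D5:**
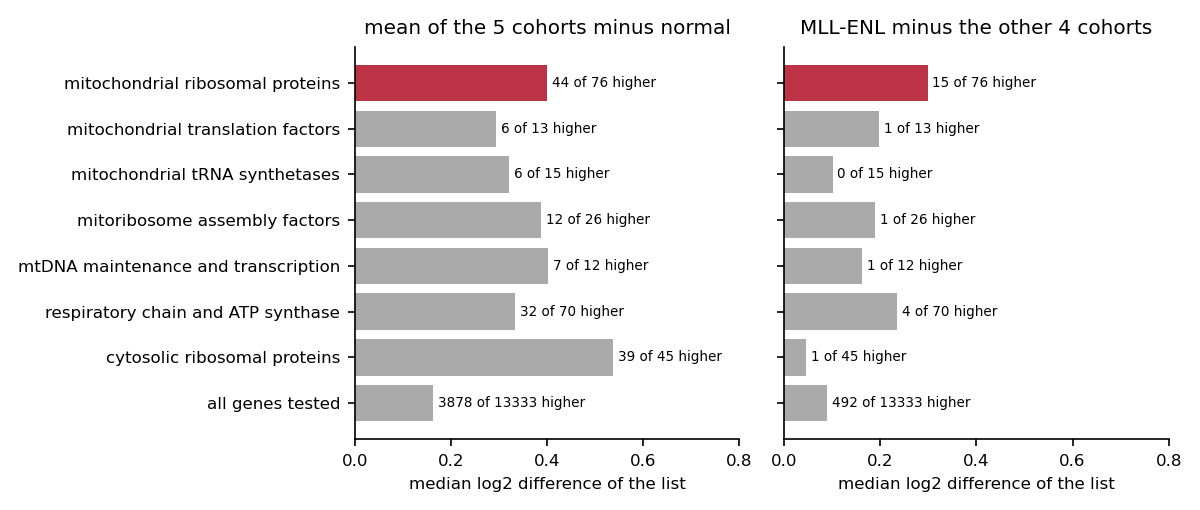
Median log2 difference of each gene list, with the number of members called higher, for the mean of the 5 cohorts minus normal marrow (left) and MLL-ENL minus the other 4 cohorts (right). Mitochondrial ribosomal proteins (red) have medians of 0.40 and 0.30, cytosolic ones 0.54 and 0.05, and all genes tested 0.16 and 0.09.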

How the data were processed

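Per the labels' protocols, total RNA was extracted with Trizol from cryopreserved marrow cells, and biotin-labelled by in vitro transcription. The deposited values are linear intensities of probe sets that the authors had scaled, each array having a trimmed mean of 500 (2% taken off either end). Software for them is not given in the sources used. Values were taken as log2(intensity + 46.1), the 25th percentile of all values. Array medians spanned 0.537, above 0.5, so arrays were shifted to 1 median. Probe sets above their array's median on at least 4 arrays were kept (29004), and the brightest kept one stood for a gene. Comparisons used limma 3.58.1 in R 4.3.3, 1 model of 6 group means, 2-sided, with Benjamini-Hochberg adjustment over 13333 genes and a threshold of 0.05. Mice are separate animals per the labels, and the number of mice limits the precision.

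Members and lists were chosen with earlier results of these data known. Named members are the 8 largest rises, the 3 largest per cohort against the others (only MLL-ENL had any called), the 3 smallest p of the F test, and the S18, stalk and other proteins listed by name. Other members named were picked after their values were seen. The part of that rule on highest and lowest levels was not used, since levels of different probe sets cannot be compared. Alternatives covered scaling, pseudocount, filter, probe set choice, array weights, array sets and each array left out. Fits within array set 1, and leaving out the 5 arrays whose hybridisation controls were brightest, were added after the data were seen. No sequences of proteins were used.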

Additional observations from a re-analysis of the deposited data

Results flagged for a closer look

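Within groups of 4 to 10 mice, 14 of 150 groups tested held 1 mouse far from the others, where chance gives about 1 in 20. Several fell on the same animals. MLL-GAS7_407 was low in Mrps27 (7.51, against 8.58 to 8.86 in the other MLL-GAS7 mice), Mrpl58 (9.65, against 10.52 to 10.81), Mrpl10 (10.36, against 10.79 to 10.89) and Mrps12 (10.01, against 10.79 to 11.10). MLL-AF9_305 was low in Mrpl23 (11.01, against 11.77 to 11.93), in Mrpl42 (10.39, against 11.09 to 11.27) and in the median deviation of the large-subunit genes (0.0098, against 0.4426 to 0.6116). Array MLL-GAS7_407 also belongs to the 5 with the brightest hybridisation controls.

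The other single values were these. Mrps27 was 6.64 in MLL-AF10_782A, against 8.41 to 9.03 in the other MLL-AF10 mice. Mrpl51 was 11.20 in MLL-AF10_797A, against 11.52 to 11.79. Mrpl33 was 10.56 in MLL-AF1p_803, against 11.26 to 11.83. Mrpl50 was 10.17 in MLL-ENL_760, against 9.61 to 9.85. Among the normal samples, Mrps15 was 10.13 in sample 2, against 9.39 to 9.51, Mrpl42 was 10.70 in sample 1, against 10.27 to 10.32, and Mrps18a was 9.46 in sample 3, against 9.73 to 9.77.

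By the F test the cohorts differed in 7 of 76 members, a share close to the 8.09% of all genes that it called, with adjusted p-values of 0.0159 for Mrpl51, 0.0289 for Mrpl50, 0.0297 for Mrpl42, 0.0298 for Mrpl45 and 0.0345 for Mrpl32.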

How the results depend on the processing

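Over 13 alternatives other than leaving out an array, the count of 44 members higher in leukaemia ran from 31 to 54, and the members' median minus that of all genes from 0.18 to 0.27. Of the 44 members 26 kept the call in all 13 and 21 of these also with each array left out. The number called lower was 1 as deposited and 1 after quantile normalization (Mrpl14 at -0.33 and -0.35), and 1 with the most variable probe set of a gene (Mrpl38). Against normal marrow, MLL-AF10 had 19 called of 62 measured without _s, _x and _a probe sets, and MLL-AF9 had 51 with array weights and 7 within array set 2. Against the other cohorts, MLL-AF1p had 1 after quantile normalization and 1 with a pseudocount 4 times larger. MLL-GAS7 had 1 with the stricter filter, 3 with array weights, 1 with array set as a term and 1 within array set 2. MLL-ENL had 9 without _s, _x and _a probe sets, 24 with array weights, 0 within array set 1 and 0 within array set 2. The F test called 4 with a pseudocount of 1, 11 with one 4 times larger, 4 with the most variable probe set, 24 with array weights, 2 without the 5 brightest arrays, 0 within array set 1 and 0 within array set 2. In Mrpl17 the probe set that stood for the gene without _s, _x and _a ones gave -0.33 (adjusted p 0.235) in place of 1.01, while its remaining kept probe set gave 0.62. The cause was not tested, except that the fits within an array set have fewer mice.

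With each array left out, leukaemia against normal called 33 to 47 higher and 0 lower, MLL-AF1p against normal 26 to 39, MLL-AF10 24 to 35, MLL-GAS7 9 to 26, MLL-AF9 19 to 44 and MLL-ENL 53 to 58. Against the other cohorts the ranges were 0 to 1 in MLL-AF1p, 0 to 0 in MLL-AF10, 0 to 12 in MLL-GAS7, 0 to 0 in MLL-AF9 and 4 to 29 in MLL-ENL, and 2 to 21 for the F test. The 1 in MLL-AF1p came without MLL-AF1p_809 or MLL-GAS7_410. The median difference from all genes ran from 0.2131 to 0.2593. No paired analysis was possible because the groups share no replicate numbers. No detection calls were used, so dim probe sets were limited by the filter alone.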

Other observations

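Some members share a promoter region with a neighbour on the opposite strand. In RefSeq 25 of 67 members (37.3%) have an opposite-strand gene start within 1000 bases, against 11.4% of all promoters and 16.9% of those of genes tested on the array. Of the 23 partners that were tested, 6 were called higher in leukaemia and 2 lower, where 29.1% and 12.8% of all genes were. Where the member was called higher and the partner tested, 4 of 11 partners were higher and 0 lower. Shared control of the pairs was not tested. The pairs below were singled out after their values were seen. Mrps27 starts 108 bases from Ptcd2, and both were higher in leukaemia (1.26, adjusted p 0.000266, and 0.70, adjusted p 7.31e-06). Mrpl49 starts 192 bases from Fau, the gene of cytosolic ribosomal protein S30, and only Fau was called higher (0.66, adjusted p 1.55e-05, against 0.01 in Mrpl49). Mrpl51 and Mrpl14, neither called, have partners that were called lower, Ncapd2, a condensin subunit (-0.68, adjusted p 0.0073), and Tmem63b (-0.49, adjusted p 0.0153). Mrpl46 and Mrps11 are partners of each other, 42 bases apart, and had estimates of 0.31 (adjusted p 0.082) and -0.30 (adjusted p 0.309).

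The members lie on 17 chromosomes, at most 11 of them on chromosome 11. Against the other cohorts Mrpl52 was the only member with an estimate below 0 in MLL-ENL (-0.09).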
